A study of Homo sapiens with 22 samples.

Results

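Transcripts of 8 genes around the PI3K-AKT-FOXO axis were followed in PC9 and in populations derived from it. PC9 is an established line of human lung adenocarcinoma cells whose growth relies on a mutated, constantly active EGFR. The genes were chosen by symbol, with earlier results of these data known, so counts among them are a description. They comprise the transcription factors FOXO1, FOXO3 and FOXO4, the genes DEPP1, PIK3IP1, SESN1 and CITED2, which are described as FOXO targets or as restraints on growth signalling, and PIK3R1, a regulatory subunit of PI3K. All 8 were among the 17165 genes listed in the deposited table, under the identifiers ENSG00000150907 (FOXO1), ENSG00000118689 (FOXO3), ENSG00000184481 (FOXO4), ENSG00000165507 (DEPP1), ENSG00000100100 (PIK3IP1), ENSG00000080546 (SESN1), ENSG00000145675 (PIK3R1) and ENSG00000164442 (CITED2). Polyadenylated RNA of 22 libraries had been sequenced, in 11 groups of 2. The groups were GR3 cells with WZ4002 or vehicle, GR2 cells with WZ4002 or vehicle, gefitinib-tolerant cells with gefitinib or vehicle, WZ4002-tolerant cells with WZ4002 or vehicle, and parental cells with WZ4002, gefitinib or vehicle. Gefitinib blocks the EGFR kinase reversibly and WZ4002 binds it covalently. The labels give an exposure of 24 h and a dose of 1 mM for either drug. The dose is printed as labelled, although cultured cells usually receive such inhibitors at far lower concentrations. All populations are descendants of 1 line. The labels describe GR2 and GR3 only as PC9 derivatives and the tolerant cells only by the drug, and how many clones or cultures stand behind a group is not given in the sources used here.

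Growth factor receptors such as EGFR activate PI3K, whose lipid product recruits the kinase AKT to the membrane. AKT phosphorylates FOXO proteins, which are then held in the cytoplasm by 14-3-3 proteins. When AKT activity falls they enter the nucleus and activate genes of cell-cycle arrest, cell death, autophagy and metabolism. In EGFR-mutant lung cancer the receptor drives much of this signalling, and inhibitors of the receptor lower AKT phosphorylation. RNA levels show neither where FOXO proteins are nor whether they are phosphorylated.

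FOXO proteins bind DNA at sites whose core is written GTAAACA. Promoter windows of the 8 genes were therefore read for these letters on both strands, where the other strand reads TGTTTAC. The windows run from 250 bases before to 50 bases after each annotated start, in RefSeq on GRCh38.p14, a later build than the hg19 on which the reads were aligned. Together the genes had 19 windows, and 3 windows, 1 each of DEPP1, FOXO4 and PIK3IP1, held a match. Among all 35116 windows 3.42% did, and 4.19% of all 27305 genes had a match in at least 1 window. The windows of FOXO1, FOXO3, SESN1, PIK3R1 and CITED2 did not hold these letters. The 3 stretches are shown because they hold the only matches among the 8 genes, whatever the drug change of the gene. CITED2, which rose in all 6 drug responses, had no match. Capitals mark the match. For DEPP1 the 250 bases before the start are given (chr10:44978810-44979059, minus strand), with the first base of the match 180 bases before the start. For FOXO4 (chrX:71095862-71095891, plus strand) and PIK3IP1 (chr22:31292455-31292484, minus strand) 30 bases around the match are given. There the match begins 23 and 16 bases after the start, inside the transcript.
DEPP1: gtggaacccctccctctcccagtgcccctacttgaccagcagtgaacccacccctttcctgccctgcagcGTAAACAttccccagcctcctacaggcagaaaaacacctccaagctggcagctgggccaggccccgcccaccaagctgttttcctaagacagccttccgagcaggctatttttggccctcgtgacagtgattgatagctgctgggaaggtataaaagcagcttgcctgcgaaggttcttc
FOXO4: ccccggcgagtgGTAAACAgagacgtcagg
PIK3IP1: ctaaagagaggcTGTTTACcagaacagcat
A match describes the sequence and does not show that a FOXO protein binds there. Occupancy was not measured.

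The libraries held 23.6 to 49.6 M reads (M, mega), of which 14.4 to 31.8 M fell in the listed genes, and each of the 8 genes had at least 56 reads in every library. Epithelial markers (EPCAM, CDH1, KRT8, KRT18 and KRT19) were listed in all libraries at 107 CPM or more. CPM is the library-scaled read count of a gene, as the authors deposited it. The lung lineage markers NKX2-1 and NAPSA were low, at 0.08 to 1.7 CPM and 0.22 to 1.35 CPM, and SFTPB lay between 0.06 and 28.6 CPM. The leukocyte markers PTPRC, CD68 and CD3E were not in the table. Of the fibroblast markers COL1A1 lay at 5.27 to 18.4 CPM and COL1A2 at 0.02 to 0.16 CPM, and of the endothelial markers CDH5 lay at 1.91 to 37.2 CPM, VWF at 0.14 to 2.86 CPM and PECAM1 was not in the table. In bulk RNA, fewer cells of a kind and less RNA per cell cannot be told apart. The labels do not say that the libraries of a group came from separate cultures, so a p-value measures only the spread between these libraries. That spread was smallest in GR2 vehicle cells, with a root mean square SD of 0.1 on the log2 scale, and largest in GR3 vehicle cells and parental WZ4002 cells, with 0.325 in each.

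In parental cells all 8 genes rose with WZ4002 and all 8 rose with gefitinib. In GR2 cells 7 rose with WZ4002, in gefitinib-tolerant cells 5 rose with gefitinib, in WZ4002-tolerant cells 5 rose with WZ4002, and in GR3 cells 3 rose with WZ4002. None fell in any of the 6 responses. Calls are limma adjusted p under 0.05 over 15485 tested genes, on log2(CPM + 1), a scale that understates the changes of low genes. Of all tested genes, 12.1% rose in GR3, 27.4% in GR2, 15.2% in gefitinib-tolerant cells, 17% in WZ4002-tolerant cells, 25.1% in parental cells with WZ4002 and 23.5% in parental cells with gefitinib. The median change over the 8 genes was 0.54 in GR3, 1.85 in GR2, 0.99 in gefitinib-tolerant cells, 0.95 in WZ4002-tolerant cells, 1.42 in parental cells with WZ4002 and 1.54 in parental cells with gefitinib, where the median of all genes lay between 0.01 and 0.04. Both drug libraries lay above both vehicle libraries for 8 genes in GR2 and in each parental response, for 6 in either tolerant population and for 5 in GR3. The share of all tested genes that separated in this way was not computed, so these counts are a description only. Both parental responses use the same vehicle libraries. In GR2 both vehicle columns stand in the last of 3 runs of neighbouring columns in the deposited table, which holds neither GR2 WZ4002 column. The GR2 response therefore goes along with this position, and what the runs stand for is not given. The 8 genes differed widely in size of change. PIK3IP1, DEPP1 and CITED2 rose in all 6 responses and kept these calls with each library left out in turn and under every other setting run, FOXO4 rose in 5, FOXO1 and SESN1 in 4 each, FOXO3 in 3 and PIK3R1 in 2.

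**Figure D1:**
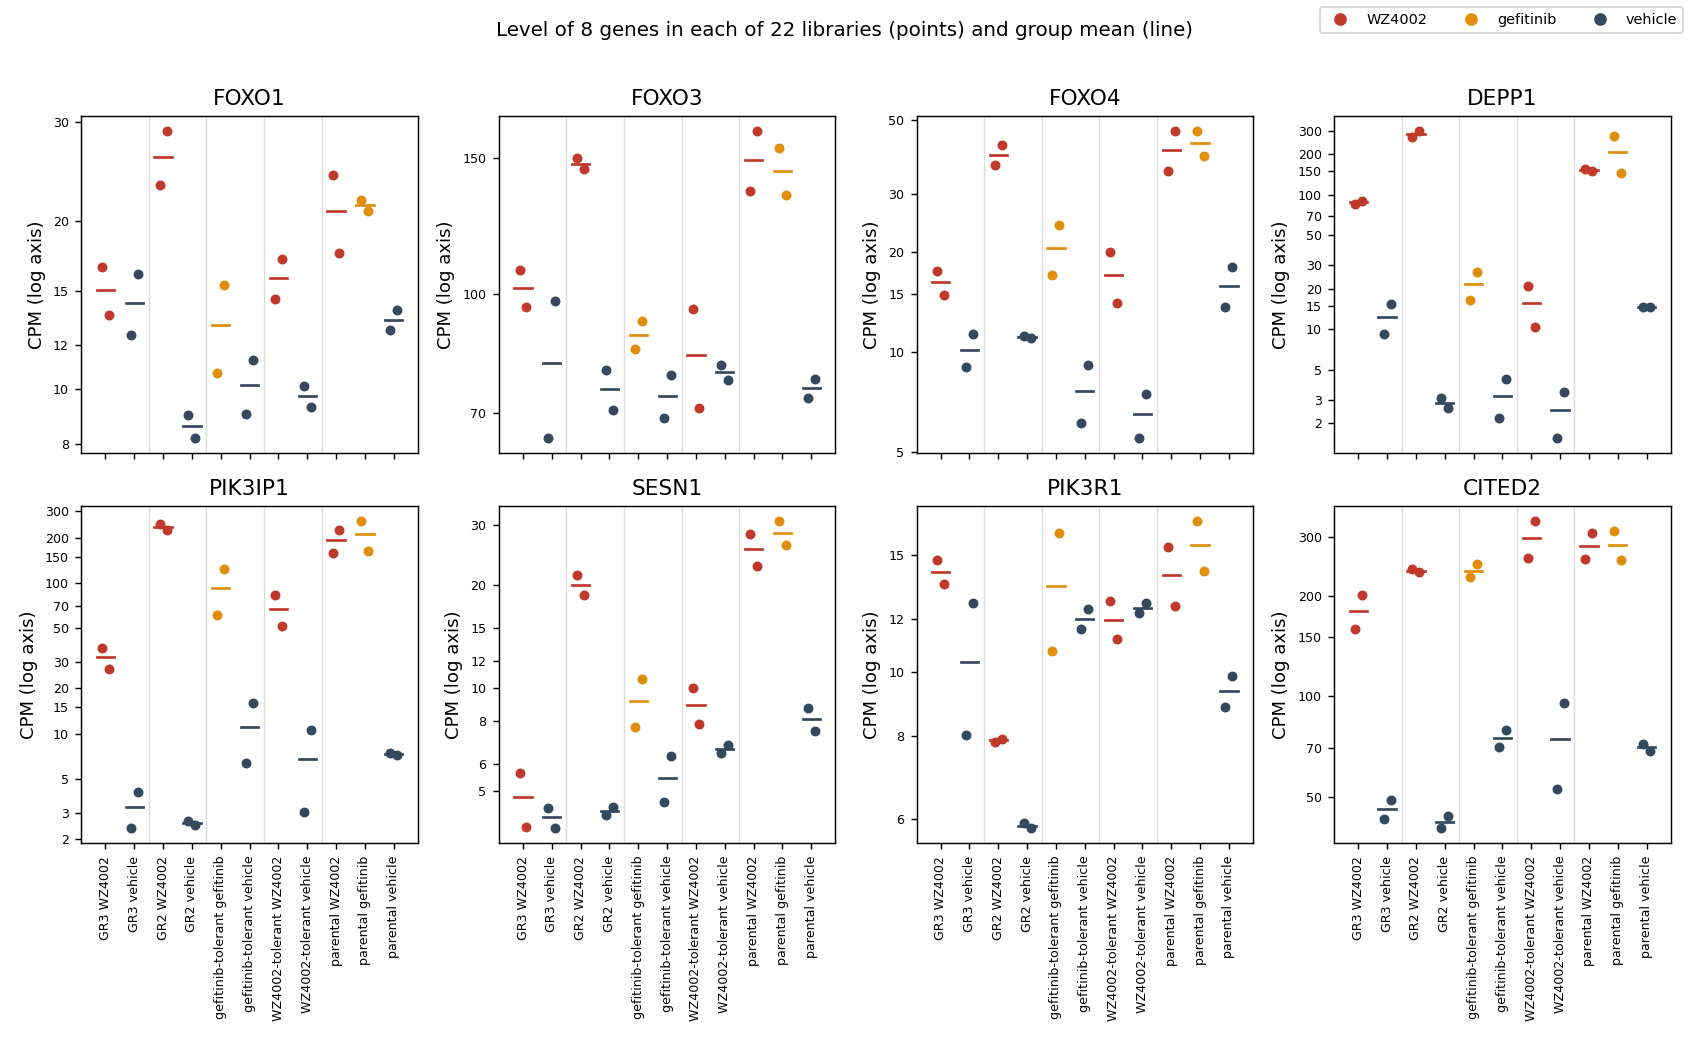
CPM of the 8 genes on log axes in each of the 22 libraries (points) with the mean of each group (lines), with WZ4002 in red, gefitinib in orange and vehicle in dark grey. DEPP1, PIK3IP1 and CITED2 show drug libraries above vehicle libraries in every population, while PIK3R1 stays between 5.82 and 16.88 CPM throughout.

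FOXO1, a regulator of metabolism and cell survival, had the lowest level of the 3 factors per kilobase of merged exon in all 11 groups. It had 16.52 and 13.55 CPM in GR3 cells with WZ4002, against 12.49 and 16.06 CPM with vehicle. In GR2 cells it had 23.14 and 28.85 CPM with WZ4002, against 9 and 8.18 CPM with vehicle. The GR3 groups overlapped and the GR2 groups did not. In gefitinib-tolerant cells FOXO1 had 10.68 and 15.33 CPM with gefitinib, against 9.05 and 11.28 CPM with vehicle, and in WZ4002-tolerant cells 14.50 and 17.05 CPM with WZ4002, against 10.15 and 9.29 CPM with vehicle. Parental cells had 24.15 and 17.52 CPM with WZ4002 and 21.79 and 20.78 CPM with gefitinib, against 12.75 and 13.83 CPM with vehicle. The mean was 3.03 times as high with WZ4002 as with vehicle in GR2, 1.62 times in WZ4002-tolerant cells, and 1.57 times with WZ4002 and 1.6 times with gefitinib in parental cells. FOXO1 rose by 1.49 ± 0.20 (SE) on the log2 scale in GR2 (adjusted p = 1.3e-05). Its rises of 0.64 in WZ4002-tolerant cells (adjusted p = 0.021), 0.60 with WZ4002 in parental cells (adjusted p = 0.02) and 0.64 with gefitinib in parental cells (adjusted p = 0.014) were smaller. The smaller rises did not hold on leaving out single libraries. The adjusted p was 0.082, 0.09 and 0.12 without WZ4002-tolerant vehicle replicate 1, vehicle replicate 2 or WZ4002 replicate 2. For the parental WZ4002 response it was 0.19 without WZ4002 replicate 1, 0.11 without vehicle replicate 1 and 0.073 with the spread of the compared groups alone, and for the parental gefitinib response 0.072 without gefitinib replicate 1 and 0.086 without vehicle replicate 1. The change was 0.07 ± 0.20 in GR3 and 0.31 ± 0.20 in gefitinib-tolerant cells, neither of which passed the test (adjusted p = 0.82 and 0.24).

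FOXO3, the factor most often linked to cell death genes in cancer cells, had the highest CPM of the 3 in all 11 groups. GR3 cells had 107.39 and 95.98 CPM with WZ4002, against 64.86 and 97.73 CPM with vehicle, and GR2 cells had 150.07 and 145.30 CPM with WZ4002, against 79.63 and 70.64 CPM with vehicle. Gefitinib-tolerant cells had 84.67 and 92.28 CPM with gefitinib, against 68.98 and 78.34 CPM with vehicle, and WZ4002-tolerant cells had 95.40 and 70.90 CPM with WZ4002, against 80.83 and 77.31 CPM with vehicle. Parental cells had 136.00 and 162.62 CPM with WZ4002 and 154.68 and 134.42 CPM with gefitinib, against 73.24 and 77.48 CPM with vehicle. FOXO3 thus formed an upper set of 3 groups, GR2 with WZ4002 and parental cells with either inhibitor, whose lowest library stood above every library of the other 8 groups. It rose by 0.97 ± 0.17 in GR2 (adjusted p = 0.00023), by 0.97 ± 0.17 with WZ4002 in parental cells (adjusted p = 0.00037) and by 0.93 ± 0.17 with gefitinib in parental cells (adjusted p = 0.00057), or 1.97, 1.98 and 1.92 times the vehicle mean. The changes of 0.35 in GR3, 0.26 in gefitinib-tolerant cells and 0.06 in WZ4002-tolerant cells did not pass (adjusted p = 0.16, 0.27 and 0.83), and the GR3 change was 0.64 without GR3 vehicle replicate 2 (adjusted p = 0.016). FOXO3 has a near-identical copy, FOXO3B, which was listed at 0.68 to 1.91 CPM, and reads that fit both cannot be told apart.

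FOXO4, the X-linked factor, had the largest estimated change of the 3 factors in each of the 6 responses. It had 17.56 and 14.86 CPM in GR3 cells with WZ4002, against 9.01 and 11.31 CPM with vehicle, and 36.59 and 42.00 CPM in GR2 cells with WZ4002, against 11.15 and 11.02 CPM with vehicle. Gefitinib-tolerant cells had 17.02 and 24.19 CPM with gefitinib, against 6.13 and 9.12 CPM with vehicle, and WZ4002-tolerant cells had 20.02 and 14.05 CPM with WZ4002, against 5.5 and 7.49 CPM with vehicle. Parental cells had 35.08 and 46.21 CPM with WZ4002 and 46.20 and 39.05 CPM with gefitinib, against 13.63 and 18.06 CPM with vehicle. No drug group overlapped its vehicle group. FOXO4 rose by 1.73 ± 0.23 in GR2 (adjusted p = 1.6e-05), 1.33 ± 0.23 in gefitinib-tolerant cells (adjusted p = 0.0012), 1.26 ± 0.23 in WZ4002-tolerant cells (adjusted p = 0.0013), and 1.31 ± 0.23 with WZ4002 and 1.38 ± 0.23 with gefitinib in parental cells (adjusted p = 0.00035 and 0.00025). Its change of 0.63 ± 0.23 in GR3 had an adjusted p of 0.063, which fell under the threshold with a replicate block (0.048) or with a term for runs of neighbouring columns in the deposited table (0.036). The WZ4002 group means were 3.54 times the vehicle mean in GR2 and 1.6 times in GR3. Per kilobase of merged exon, the group means were 9.54 to 19.3 CPM for FOXO3, 1.88 to 12.4 CPM for FOXO4 and 1.38 to 4.17 CPM for FOXO1, and this order held in all 11 groups.

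DEPP1 encodes a regulator of autophagy and oxidative stress that is induced by FOXO factors in several cell types. It had the widest range of the 8 genes, with a highest library 190 times the lowest. It had 85.11 and 90.34 CPM in GR3 cells with WZ4002, against 9.17 and 15.50 CPM with vehicle, and 266.78 and 295.24 CPM in GR2 cells with WZ4002, against 3.07 and 2.58 CPM with vehicle. Gefitinib-tolerant cells had 16.40 and 26.69 CPM with gefitinib, against 2.17 and 4.25 CPM with vehicle, and WZ4002-tolerant cells had 21.06 and 10.35 CPM with WZ4002, against 1.55 and 3.44 CPM with vehicle. Parental cells had 154.40 and 150.19 CPM with WZ4002 and 271.16 and 145.84 CPM with gefitinib, against 14.52 and 14.59 CPM with vehicle. The WZ4002-tolerant libraries with WZ4002 lay on either side of the parental vehicle libraries, and both gefitinib-tolerant libraries with gefitinib lay above them. The group mean with drug was 99.5 times the vehicle mean in GR2, 7.11 times in GR3, 6.71 times in gefitinib-tolerant cells, 6.29 times in WZ4002-tolerant cells, 10.5 times with WZ4002 in parental cells and 14.3 times with gefitinib in parental cells. DEPP1 rose by 6.21 ± 0.36 in GR2 (adjusted p = 7.7e-09) and by 2.78 ± 0.36 in GR3 (adjusted p = 1e-04). It rose by 2.43 in gefitinib-tolerant cells (adjusted p = 0.00053), 2.23 in WZ4002-tolerant cells (adjusted p = 0.00065), and 3.30 with WZ4002 and 3.68 with gefitinib in parental cells (adjusted p = 6.9e-06 and 3.5e-06).

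PIK3IP1, a transmembrane protein that binds the catalytic subunit of PI3K and lowers its activity, rose most in GR2 and parental cells. It had 37.36 and 27.12 CPM in GR3 cells with WZ4002, against 2.38 and 4.12 CPM with vehicle, and 244.96 and 226.61 CPM in GR2 cells with WZ4002, against 2.64 and 2.47 CPM with vehicle. Gefitinib-tolerant cells had 61.80 and 123.94 CPM with gefitinib, against 6.40 and 15.96 CPM with vehicle, and WZ4002-tolerant cells had 82.92 and 51.63 CPM with WZ4002, against 3.02 and 10.54 CPM with vehicle. Parental cells had 158.44 and 226.10 CPM with WZ4002 and 258.00 and 163.09 CPM with gefitinib, against 7.51 and 7.25 CPM with vehicle. With vehicle no library exceeded 15.96 CPM and with an inhibitor none was under 27.12 CPM, so that all 12 drug libraries lay above all 10 vehicle libraries. The mean with drug was 92.3 times the vehicle mean in GR2, 9.92 times in GR3, 8.31 times in gefitinib-tolerant cells, 9.92 times in WZ4002-tolerant cells, and 26.1 times with WZ4002 and 28.5 times with gefitinib in parental cells. PIK3IP1 rose by 6.06 ± 0.46 in GR2 (adjusted p = 6.4e-08), 2.98 ± 0.46 in GR3 (adjusted p = 0.00039), 2.98 in gefitinib-tolerant cells (adjusted p = 0.00061) and 3.29 in WZ4002-tolerant cells (adjusted p = 0.00029). In parental cells it rose by 4.51 with WZ4002 (adjusted p = 4.2e-06) and by 4.62 with gefitinib (adjusted p = 3.9e-06).

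SESN1 encodes sestrin 1, a stress protein that restrains mTORC1 through the GATOR complexes and is a known target of p53 and of FOXO factors. It had 5.65 and 3.94 CPM in GR3 cells with WZ4002, against 4.48 and 3.91 CPM with vehicle, and 21.47 and 18.75 CPM in GR2 cells with WZ4002, against 4.26 and 4.5 CPM with vehicle. GR3 and GR2 therefore had similar levels with vehicle, and the WZ4002 libraries of GR2 lay above all 4 GR3 libraries. Gefitinib-tolerant cells had 7.71 and 10.63 CPM with gefitinib, against 4.64 and 6.32 CPM with vehicle, and WZ4002-tolerant cells had 10.04 and 7.84 CPM with WZ4002, against 6.47 and 6.81 CPM with vehicle. Parental cells had 28.22 and 22.79 CPM with WZ4002 and 30.84 and 26.22 CPM with gefitinib, against 8.78 and 7.5 CPM with vehicle. SESN1 rose by 1.97 ± 0.20 in GR2 (adjusted p = 9.1e-07), by 1.53 ± 0.20 with WZ4002 and 1.69 ± 0.20 with gefitinib in parental cells (adjusted p = 2.6e-05 and 1.3e-05), means of 4.59, 3.13 and 3.5 times vehicle. In gefitinib-tolerant cells it rose by 0.65 ± 0.20 (adjusted p = 0.023), a call that was lost without vehicle replicate 1 (0.46, adjusted p = 0.24), without gefitinib replicate 2 (0.44, adjusted p = 0.26) or with the spread of the compared groups alone (adjusted p = 0.086). The changes of 0.14 ± 0.20 in GR3 and 0.37 ± 0.20 in WZ4002-tolerant cells did not pass (adjusted p = 0.64 and 0.16).

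PIK3R1 encodes p85 alpha, which stabilises the catalytic subunit of PI3K, holds it inactive and couples it to receptors. It passed in 2 of the 6 responses. It had 14.73 and 13.55 CPM in GR3 cells with WZ4002, against 8.03 and 12.68 CPM with vehicle, and 7.84 and 7.92 CPM in GR2 cells with WZ4002, against 5.91 and 5.82 CPM with vehicle. GR2 had the lowest levels of all populations under either treatment. Gefitinib-tolerant cells had 10.74 and 16.18 CPM with gefitinib, against 11.61 and 12.45 CPM with vehicle, and WZ4002-tolerant cells had 12.77 and 11.19 CPM with WZ4002, against 12.28 and 12.72 CPM with vehicle. Parental cells had 15.43 and 12.59 CPM with WZ4002 and 16.88 and 14.17 CPM with gefitinib, against 8.84 and 9.85 CPM with vehicle. Both tolerant populations showed overlapping groups. PIK3R1 rose by 0.53 ± 0.20 with WZ4002 (adjusted p = 0.035) and by 0.67 ± 0.20 with gefitinib in parental cells (adjusted p = 0.011), or 1.5 and 1.66 times the vehicle mean. The WZ4002 call was lost without WZ4002 replicate 1 (adjusted p = 0.19), vehicle replicate 1 (0.17) or vehicle replicate 2 (0.065) and with the spread of the compared groups alone (0.081), and the gefitinib call without gefitinib replicate 1 (0.094) or vehicle replicate 1 (0.079). Elsewhere the change was 0.44 in GR3, 0.37 in GR2, 0.12 in gefitinib-tolerant cells and -0.06 in WZ4002-tolerant cells, and none of these passed (adjusted p = 0.11, 0.12, 0.66 and 0.84). The GR3 change was 0.74 without GR3 vehicle replicate 2 (adjusted p = 0.017).

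CITED2 binds the coactivators EP300 and CREBBP, competes with HIF1A for them, and has been described as a FOXO3 target. It rose in all 6 responses. It had 158.74 and 200.35 CPM in GR3 cells with WZ4002, against 42.83 and 48.89 CPM with vehicle, and 239.71 and 234.50 CPM in GR2 cells with WZ4002, against 40.44 and 43.70 CPM with vehicle. Gefitinib-tolerant cells had 226.78 and 247.84 CPM with gefitinib, against 70.50 and 79.43 CPM with vehicle, and WZ4002-tolerant cells had 259.57 and 333.93 CPM with WZ4002, against 52.83 and 95.69 CPM with vehicle. Parental cells had 256.95 and 306.94 CPM with WZ4002 and 311.31 and 255.79 CPM with gefitinib, against 72.02 and 68.76 CPM with vehicle. All 12 drug libraries, at 158.74 CPM or more, lay above all 10 vehicle libraries, at 95.69 CPM or less. The mean with drug was 5.64 times the vehicle mean in GR2, 3.92 times in GR3, 3.17 times in gefitinib-tolerant cells, 4 times in WZ4002-tolerant cells, and 4.01 times with WZ4002 and 4.03 times with gefitinib in parental cells. CITED2 rose by 2.47 ± 0.21 in GR2 (adjusted p = 1.9e-07), 1.94 ± 0.21 in GR3 (adjusted p = 2.3e-05), 1.65 ± 0.21 in gefitinib-tolerant cells (adjusted p = 0.00022) and 2.03 ± 0.21 in WZ4002-tolerant cells (adjusted p = 6.3e-05). In parental cells it rose by 1.98 with WZ4002 and 1.99 with gefitinib (adjusted p = 5.6e-06 and 6.2e-06).

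**Figure D2:**
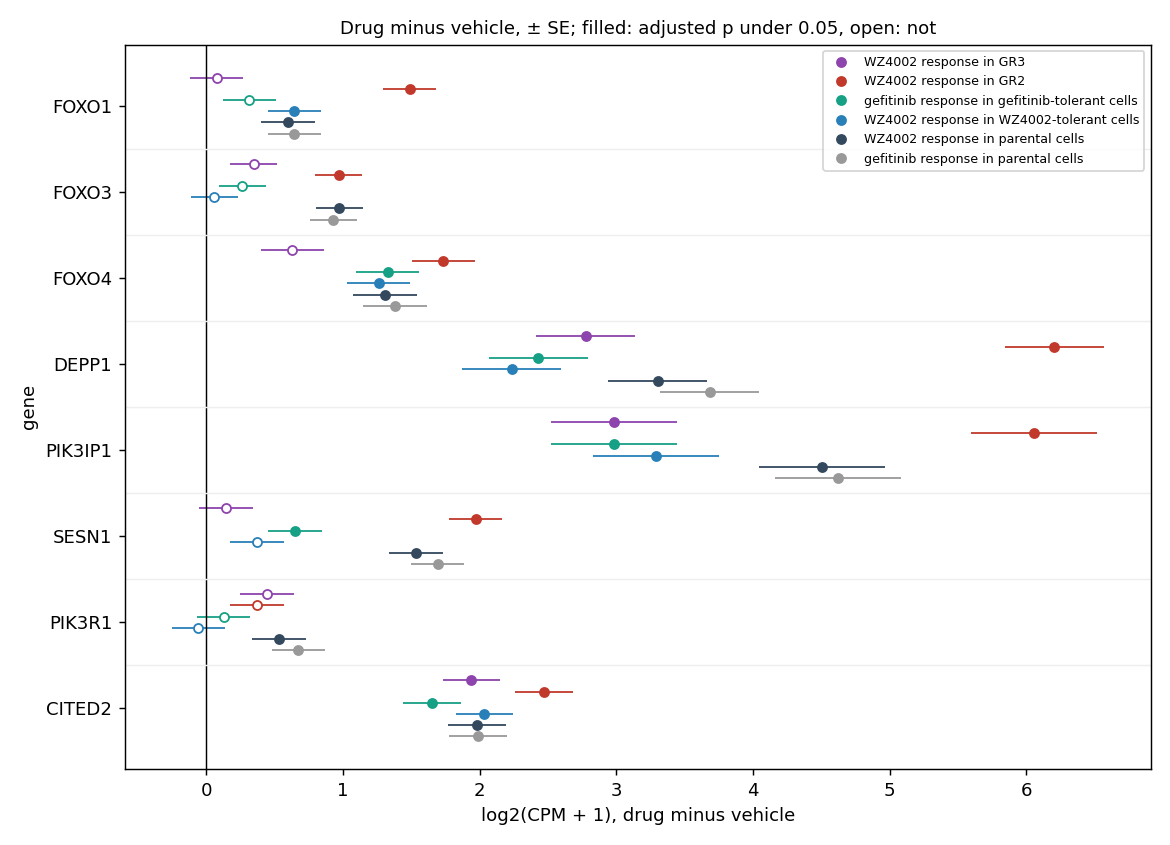
Change of each of the 8 genes with drug, as log2(CPM + 1) with drug minus with vehicle, in 6 responses. Points are limma estimates with their SE, filled where the adjusted p was under 0.05 and open where it was not. The GR2 response reached 6.21 for DEPP1 and 6.06 for PIK3IP1, while the CITED2 responses all lay between 1.65 and 2.47.

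Ordered by mean level over the 11 groups, most neighbouring groups overlapped in their libraries. Of the 10 neighbouring pairs, 4 stood apart for SESN1 and CITED2, 3 for FOXO1, DEPP1 and PIK3IP1, and 2 for FOXO3, FOXO4 and PIK3R1. Except for PIK3R1 and CITED2, the 3 highest groups of each gene were GR2 with WZ4002 and parental cells with either inhibitor. For CITED2 the highest was WZ4002-tolerant cells with WZ4002, whose libraries overlapped those of both drug-treated parental groups, and for PIK3R1 GR3 cells with WZ4002 were second and the GR2 groups stood last. GR2 with vehicle had the lowest mean of FOXO1, PIK3IP1, PIK3R1 and CITED2.

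Parental cells received both inhibitors, at a matched labelled dose and duration, which allowed 1 direct comparison of a covalent with a reversible inhibitor. With WZ4002 minus gefitinib, 0 of the 8 genes differed, as did 0% of all genes in the higher and 0% in the lower direction by limma and by limma-voom. At an unadjusted p under 0.05 there were 525 genes, and leaving out a library gave up to 343 adjusted calls over all genes. The intervals bound the differences that these libraries leave possible. The 95% interval on the log2 scale was -0.46 to 0.37 for FOXO1, -0.32 to 0.41 for FOXO3 and -0.57 to 0.42 for FOXO4. It was -0.58 to 0.26 for SESN1, -0.56 to 0.28 for PIK3R1 and -0.45 to 0.44 for CITED2. The intervals of DEPP1, -1.15 to 0.39, and PIK3IP1, -1.09 to 0.86, were wider. These intervals do not show that the inhibitors act alike.

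With vehicle, DEPP1 was lower than in parental cells in GR2 and both tolerant populations, FOXO4 in both tolerant populations, SESN1 in GR3 and GR2, and CITED2 in GR2. No member passed the test as higher. All 4 comparisons share the parental vehicle libraries. In GR3, SESN1 was the 1 gene of 8 that passed, at -0.81 ± 0.20 (adjusted p = 0.0079), where 11.1% of all genes were lower, so that the count is near the share over all genes. In GR3 DEPP1 differed by -0.26 ± 0.36 and FOXO4 by -0.59 ± 0.23 (adjusted p = 0.67 and 0.085). The SESN1 call was lost without GR3 vehicle replicate 2 (adjusted p = 0.055), without parental vehicle replicate 1 (0.073) or with the spread of the compared groups alone (0.079). In GR2, 3 of 8 were lower, where 7.76% of all genes were. DEPP1 differed by -2.03 ± 0.36 (adjusted p = 0.0015), SESN1 by -0.76 ± 0.20 (adjusted p = 0.015) and CITED2 by -0.73 ± 0.21 (adjusted p = 0.027). The CITED2 call was lost without any 1 of the 4 libraries (adjusted p = 0.093 to 0.17). The SESN1 call was lost without GR2 vehicle replicate 1 (0.11) or 2 (0.073), without parental vehicle replicate 1 (0.11) and with the column-run term (-0.43, adjusted p = 0.33). Both GR2 vehicle columns stand in the last of 3 runs of neighbouring columns, which holds no parental vehicle column. In gefitinib-tolerant cells 2 of 8 were lower, where 9.64% of all genes were, with DEPP1 at -1.93 ± 0.36 (adjusted p = 0.0018) and FOXO4 at -0.98 ± 0.23 (adjusted p = 0.0083). The FOXO4 call was lost without gefitinib-tolerant vehicle replicate 1 (adjusted p = 0.12) or parental vehicle replicate 2 (0.091). In WZ4002-tolerant cells the same 2 genes were lower, where 9.73% of all genes were, with DEPP1 at -2.21 ± 0.36 (adjusted p = 0.00075) and FOXO4 at -1.17 ± 0.23 (adjusted p = 0.0028). Between GR3 and GR2 with vehicle, 3 of 8 were higher in GR3, where 15.6% of all genes were. DEPP1 differed by 1.76 ± 0.36 (adjusted p = 0.0015), FOXO1 by 0.66 ± 0.20 (adjusted p = 0.016) and PIK3R1 by 0.70 ± 0.20 (adjusted p = 0.013). The FOXO1 and PIK3R1 calls were lost without GR3 vehicle replicate 2 (adjusted p = 0.13 and 0.17), without GR2 vehicle replicate 1 (0.053 and 0.062) or replicate 2 (0.1 and 0.065), with the column-run term (0.11 and 0.14) and with the spread of the compared groups alone (0.054 and 0.097).

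Drug-treated populations were also compared, in comparisons added after the values had been seen. Most members that differed were lower in the derived population. The comparisons with WZ4002-treated parental cells share those libraries. GR3 cells with WZ4002 were lower than parental cells with WZ4002 in 5 of 8 genes, where 15.4% of all genes were lower. SESN1 differed by -2.20 ± 0.20 (adjusted p = 1.1e-06), PIK3IP1 by -2.53 ± 0.46 (adjusted p = 0.00074), FOXO4 by -1.27 ± 0.23 (adjusted p = 0.00079), FOXO3 by -0.55 ± 0.17 (adjusted p = 0.026) and CITED2 by -0.65 ± 0.21 (adjusted p = 0.029). The FOXO3 call was lost without GR3 WZ4002 replicate 1 (adjusted p = 0.052) or 2 (0.14) or parental WZ4002 replicate 2 (0.16), and the CITED2 call without GR3 WZ4002 replicate 1 (0.2) or parental WZ4002 replicate 2 (0.16) and with the column-run term (-0.42, adjusted p = 0.16). With the spread of the compared groups alone both were lost (0.086 and 0.085) and DEPP1, at -0.79, passed (0.027). GR2 cells with WZ4002 differed from parental cells with WZ4002 in PIK3R1, the 1 of 8 that was lower (-0.75 ± 0.20, adjusted p = 0.034), where 2.87% of all genes were. This call was lost without GR2 WZ4002 replicate 1 (adjusted p = 0.14) or 2 (0.15) or parental WZ4002 replicate 1 (0.15), and with the spread of the compared groups alone (0.21). GR3 cells with WZ4002 were lower than GR2 cells with WZ4002 in 6 of 8 genes, where 17.2% of all genes were lower, and higher in PIK3R1 (0.77 ± 0.20, adjusted p = 0.0067), where 16.2% were higher. The 6 were PIK3IP1 (-2.85 ± 0.46, adjusted p = 0.00021), SESN1 (-1.88 ± 0.20, adjusted p = 4e-06), DEPP1 (-1.67 ± 0.36, adjusted p = 0.0023), FOXO4 (-1.23 ± 0.23, adjusted p = 0.00076), FOXO1 (-0.75 ± 0.20, adjusted p = 0.0076) and FOXO3 (-0.54 ± 0.17, adjusted p = 0.026). The FOXO3 call was lost without GR2 WZ4002 replicate 1 (adjusted p = 0.1) or 2 (0.086) or GR3 WZ4002 replicate 2 (0.14), and the FOXO1 call without GR2 WZ4002 replicate 2 (0.091) or GR3 WZ4002 replicate 2 (0.074).

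Drug-treated tolerant cells were lower than drug-treated parental cells in 5 of 8 genes each. WZ4002-tolerant cells with WZ4002, where 19% of all genes were lower, differed by -3.28 ± 0.36 in DEPP1 (adjusted p = 1.2e-05), -1.52 ± 0.46 in PIK3IP1 (adjusted p = 0.018), -1.42 ± 0.20 in SESN1 (adjusted p = 7.8e-05), -1.21 ± 0.23 in FOXO4 (adjusted p = 0.00097) and -0.85 ± 0.17 in FOXO3 (adjusted p = 0.0016). The PIK3IP1 call was lost without WZ4002-tolerant WZ4002 replicate 2 (adjusted p = 0.16) or parental WZ4002 replicate 2 (0.11). Gefitinib-tolerant cells with gefitinib, where 15.6% of all genes were lower, differed by -3.19 ± 0.36 in DEPP1 (adjusted p = 1.8e-05), -1.55 ± 0.20 in SESN1 (adjusted p = 4.7e-05), -1.03 ± 0.23 in FOXO4 (adjusted p = 0.0034), -0.70 ± 0.17 in FOXO3 (adjusted p = 0.0064) and -0.69 ± 0.20 in FOXO1 (adjusted p = 0.014). Leaving out gefitinib-tolerant gefitinib replicate 1 ended the calls of FOXO4 (adjusted p = 0.061), FOXO3 (0.057) and FOXO1 (0.19), leaving out parental gefitinib replicate 1 those of FOXO3 (0.064) and FOXO1 (0.076), and leaving out parental gefitinib replicate 2 that of FOXO1 (0.052). PIK3IP1, at -1.22 ± 0.46 (adjusted p = 0.054), passed with the replicate block (0.047), the column-run term (0.041), the spread of the compared groups alone (0.023), limma-voom (0.028) and without gefitinib-tolerant gefitinib replicate 2 (-1.71, adjusted p = 0.029). CITED2 differed by 0.07 ± 0.21 in WZ4002-tolerant cells and by -0.25 ± 0.21 in gefitinib-tolerant cells (adjusted p = 0.82 and 0.39), where DEPP1 was lower in both.

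**Figure D3:**
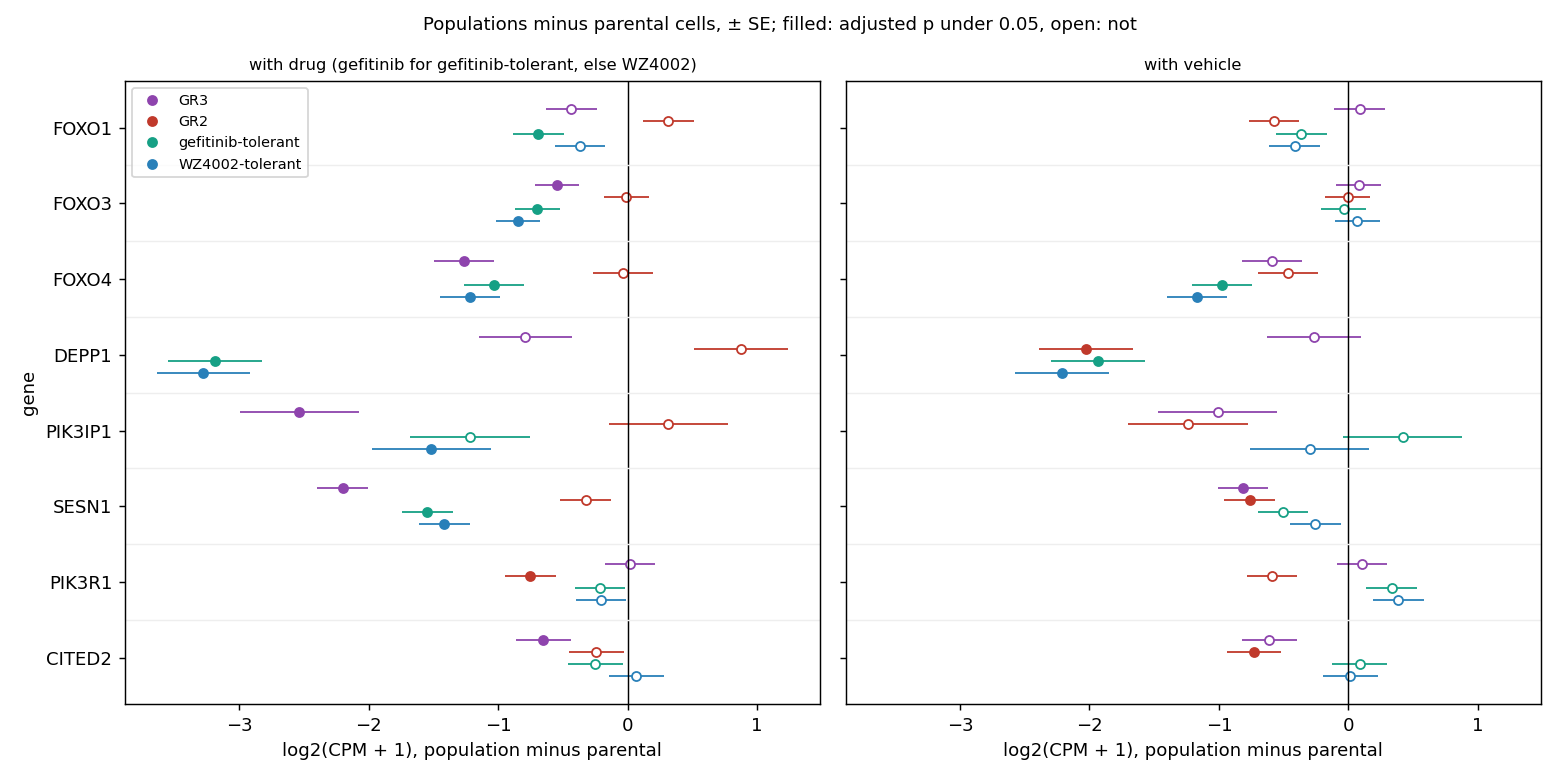
Level of each of the 8 genes in GR3, GR2, gefitinib-tolerant and WZ4002-tolerant cells minus parental cells, as log2(CPM + 1) with SE, with drug on the left and with vehicle on the right. Filled points had an adjusted p under 0.05. DEPP1 lay at -3.28 and -3.19 in the drug-treated tolerant cells and at -2.21 and -1.93 in the vehicle-treated ones.

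Whether the responses themselves differed was tested as the difference of the changes. Comparisons with GR2 or with parental cells share their libraries. The GR2 vehicle columns stand in the last run of neighbouring columns, and the GR2 WZ4002 columns and all GR3 columns in earlier runs. Differences that use the GR2 response go along with this position. The column-run term sets the last run apart only through parental and WZ4002-tolerant cells with WZ4002, whose libraries stand both in it and before it. The WZ4002 response of GR3 was smaller than that of GR2 in 5 of 8 genes, where 6.8% of all genes had a lower response. The differences were -3.43 ± 0.51 for DEPP1 (adjusted p = 0.00053), -3.08 ± 0.65 for PIK3IP1 (adjusted p = 0.0057), -1.83 ± 0.28 for SESN1 (adjusted p = 0.0006), -1.41 ± 0.28 for FOXO1 (adjusted p = 0.0034) and -1.11 ± 0.33 for FOXO4 (adjusted p = 0.035). The FOXO4 call was lost without GR3 WZ4002 replicate 2, GR3 vehicle replicate 2 or any 1 of the 4 GR2 libraries (adjusted p = 0.054 to 0.12), and the other 4 kept theirs with each library left out. FOXO3, CITED2 and PIK3R1 differed by -0.62 ± 0.24, -0.53 ± 0.30 and 0.07 ± 0.28 (adjusted p = 0.11, 0.26 and 0.89), and FOXO3 had an adjusted p of 0.011 without GR3 vehicle replicate 1. Without the same library the FOXO3 response of GR3 also fell short of the parental one (-0.92, adjusted p = 0.026). Against parental cells, the GR3 response was smaller in SESN1, 1 of 8, where 0.659% of all genes had a lower response (-1.39 ± 0.28, adjusted p = 0.023). This call was lost without GR3 WZ4002 replicate 2 (adjusted p = 0.093), without parental vehicle replicate 1 (0.081) or 2 (0.069), by limma-voom (0.055) and with the spread of the compared groups alone (0.25). Against parental cells, the GR2 response was larger in DEPP1, 1 of 8, where 3.34% of all genes had a higher response (2.90 ± 0.51, adjusted p = 0.0039). With the column-run term it was 2.44 (adjusted p = 0.08). PIK3IP1 differed by 1.55 ± 0.65 (adjusted p = 0.17, and 0.014 with the spread of the compared groups alone), and FOXO1 by 0.89 ± 0.28 (adjusted p = 0.065, and 0.029 without parental WZ4002 replicate 1). The GR2 vehicle level of DEPP1, 2.83 CPM on average, lay below the parental 14.6 CPM, and the WZ4002 level of GR2, 281 CPM, above the parental 152 CPM.

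In WZ4002-tolerant cells the response was smaller than in parental cells in 2 of 8 genes, where 2.4% of all genes had a lower response. SESN1 differed by -1.16 ± 0.28 (adjusted p = 0.028) and FOXO3 by -0.92 ± 0.24 (adjusted p = 0.045). Both were sensitive to single libraries. The SESN1 call was lost without WZ4002-tolerant WZ4002 replicate 2, either WZ4002-tolerant vehicle library, parental WZ4002 replicate 1 or either parental vehicle library (adjusted p = 0.06 to 0.14), and the FOXO3 call without WZ4002-tolerant WZ4002 replicate 2, either WZ4002-tolerant vehicle library, parental WZ4002 replicate 2 or either parental vehicle library (adjusted p = 0.081 to 0.21). With the spread of the compared groups alone the adjusted p was 0.077 for SESN1 and 0.1 for FOXO3, and for FOXO3 it was 0.053 with no filter and 0.05 by limma-voom, just over the threshold. For DEPP1 the difference was -1.07 ± 0.51 and for PIK3IP1 -1.22 ± 0.65 (adjusted p = 0.25 and 0.31). In gefitinib-tolerant cells 0 of 8 genes had a response that differed from that of parental cells by limma, and 0.936% of all genes had a lower one. Over all genes limma called 310 and limma-voom 167, and 2407 had an unadjusted p under 0.05. The nearest were SESN1 at -1.04 ± 0.28 (adjusted p = 0.065) and PIK3IP1 at -1.64 ± 0.65 (adjusted p = 0.23). SESN1 had an adjusted p of 0.049 without gefitinib-tolerant gefitinib replicate 2 and 0.032 with the column-run term.

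**Figure D4:**
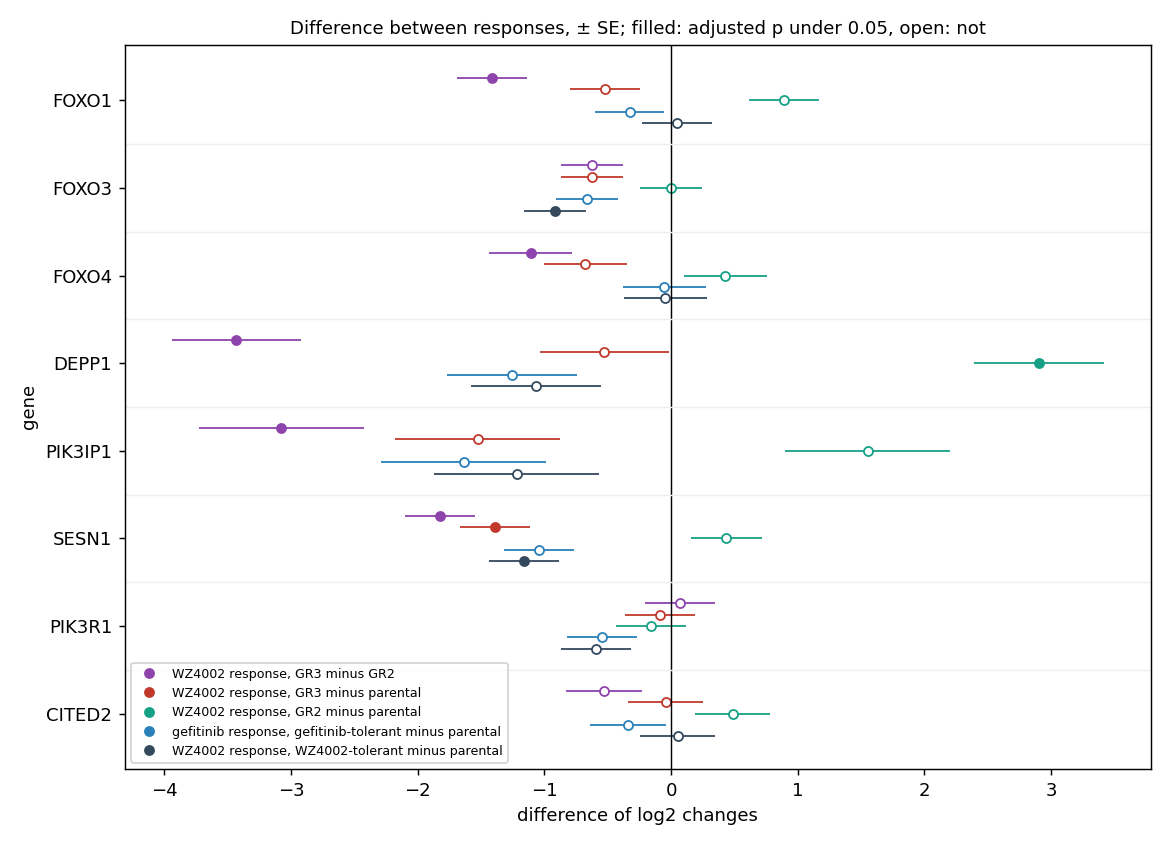
Difference between the drug responses of 2 populations for each of the 8 genes, as a difference of log2 changes with its SE. Filled points had an adjusted p under 0.05, and in the legend the minuend is named first. The GR3 minus GR2 difference reached -3.43 for DEPP1, and the GR2 minus parental difference of DEPP1 lay at 2.90.

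Over the 11 group means of log2(CPM + 1), the 8 genes correlated with each other to different degrees, given as a description only since groups share populations and drugs. Pearson r was highest for PIK3IP1 with CITED2 (0.96), followed by FOXO1 with DEPP1 (0.94), FOXO3 with DEPP1 (0.93) and FOXO4 with DEPP1 (0.93). The FOXO genes had r of 0.89 to 0.90 with each other. PIK3R1 had the lowest values, between 0.21 with FOXO4 and 0.57 with CITED2. Among 11627 genes with a mean of at least 5 CPM in some group, the genes most like each member over the same 11 groups were DAPK2 for FOXO1 (r = 0.976), DENND4C for FOXO3 (0.992), TM7SF2 for FOXO4 (0.986), SRGAP3 for DEPP1 (0.995), ANXA4 for PIK3IP1 (0.994), SEMA3E for SESN1 (0.983), N4BP1 for PIK3R1 (0.945) and TMEM86A for CITED2 (0.992). SRGAP3, the nearest to DEPP1, lay between 1.04 and 25.5 CPM over the groups, and ANXA4, the nearest to PIK3IP1, between 27.5 and 151 CPM.

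Further genes of the axis were read from lists compiled for this purpose, with earlier results of these data known. Their counts are a description beside the shares over all genes. Of 20 other genes described as FOXO targets, 18 were tested, and most rose with the inhibitors. In GR3 10 rose and 0 fell, in GR2 14 rose and 3 fell, in gefitinib-tolerant cells 14 rose and 1 fell, in WZ4002-tolerant cells 13 rose and 1 fell, and in parental cells 14 rose and 1 fell with WZ4002 and 13 rose and 0 fell with gefitinib. Over the 6 responses 12.1% to 27.4% of all genes rose. Of all genes, 9.87% fell in GR3, 28.3% in GR2, 13.6% in gefitinib-tolerant cells, 15.6% in WZ4002-tolerant cells, and 22.3% with WZ4002 and 21.8% with gefitinib in parental cells. The list medians were 0.78, 1.39, 0.88, 0.81, 1.34 and 1.35 in that order of responses. TNFSF10, the death ligand TRAIL, rose by 2.47 ± 0.37 in GR3 (adjusted p = 0.00032), 5.97 ± 0.37 in GR2 (adjusted p = 1.1e-08), and 5.09 with WZ4002 and 4.98 with gefitinib in parental cells (adjusted p = 3.1e-07 and 3.6e-07). Its means were 11.1 CPM with WZ4002 and 1.13 CPM with vehicle in GR3, and 88.3 CPM with WZ4002 and 0.42 CPM with vehicle in GR2. BCL2L11, which encodes the death activator BIM, rose by 2.54 ± 0.18 in GR2 (adjusted p = 3.2e-08), and FBXO32, a ubiquitin ligase subunit, by 1.76 ± 0.31 in gefitinib-tolerant cells (adjusted p = 0.0011) and 2.04 ± 0.31 in WZ4002-tolerant cells (adjusted p = 0.00044). In parental cells BCL2L11 averaged 47.3 CPM with WZ4002 and 53.05 CPM with gefitinib, against 17.9 CPM with vehicle. Its means were 36.9 CPM with gefitinib and 21.15 CPM with vehicle in gefitinib-tolerant cells, and 37.4 CPM with WZ4002 and 23.2 CPM with vehicle in WZ4002-tolerant cells. In GR3 they were 32.4 and 25 CPM. FBXO32 also rose by 2.64 with WZ4002 in parental cells (adjusted p = 1.1e-05). CDKN1B, the cell-cycle inhibitor p27, rose by 0.83 ± 0.13 in gefitinib-tolerant cells (adjusted p = 0.0006). The number that rose depended on single libraries in 3 populations. It was 4 without GR3 vehicle replicate 1, 5 without GR3 WZ4002 replicate 1 and 6 without GR3 WZ4002 replicate 2, it was 3 without gefitinib-tolerant vehicle replicate 1 or gefitinib replicate 2, and it was 5 without WZ4002-tolerant vehicle replicate 1 and 6 without WZ4002 replicate 1.

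Among 12 genes whose products hold FOXO in the cytoplasm, export it, or tag or strip it (14-3-3 proteins, XPO1, SKP2, MDM2, USP7 and SIRT1), 9 fell in GR2 and 8 in each parental response, 4 in WZ4002-tolerant cells, 3 in gefitinib-tolerant cells and 0 in GR3, where SKP2 rose. Of all genes 28.3% fell in GR2, 22.3% with WZ4002 and 21.8% with gefitinib in parental cells. The share was 15.6% in WZ4002-tolerant cells, 13.6% in gefitinib-tolerant cells and 9.87% in GR3, where 12.1% rose. The GR3 counts are near those shares. XPO1, the exporter of FOXO proteins from the nucleus, fell by 1.21 ± 0.15 with gefitinib (adjusted p = 2.5e-05) and by 0.88 ± 0.15 with WZ4002 in parental cells (adjusted p = 0.0003), and by 0.70 ± 0.15 in WZ4002-tolerant cells (adjusted p = 0.0035). The 14-3-3 gene YWHAQ fell by 1.18 ± 0.20 in GR2 (adjusted p = 0.00013). SKP2, a ubiquitin ligase subunit that marks FOXO1 for degradation, rose by 0.95 ± 0.31 in GR3 (adjusted p = 0.037). The number that fell was 5 without parental vehicle replicate 1 or parental WZ4002 replicate 2 for the parental WZ4002 response, and 4 without parental vehicle replicate 1 for the gefitinib response. It was 0 without WZ4002-tolerant vehicle replicate 1 and 2 without WZ4002 replicate 1, and in gefitinib-tolerant cells it was 0 without vehicle replicate 1 or gefitinib replicate 2 and 5 without vehicle replicate 2 or gefitinib replicate 1. In GR3 3 fell without vehicle replicate 2, and the SKP2 call was lost without vehicle replicate 2 or WZ4002 replicate 2.

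Other subunits and brakes of PI3K included genes that rose and genes that fell. Of the 4 further class I PI3K subunits tested, PIK3CD, a catalytic subunit, rose in all 6 responses, by 1.01 ± 0.21 in GR3 (adjusted p = 0.0033), 1.06 ± 0.21 in GR2 (adjusted p = 0.00053), 0.68 ± 0.21 in gefitinib-tolerant cells (adjusted p = 0.024), 1.02 ± 0.21 in WZ4002-tolerant cells (adjusted p = 0.0025), and 0.70 ± 0.21 with WZ4002 and 0.96 ± 0.21 with gefitinib in parental cells (adjusted p = 0.012 and 0.0018). The gefitinib-tolerant call was lost with each library left out, the WZ4002-tolerant one without vehicle replicate 1, and the parental WZ4002 one without vehicle replicate 1 or WZ4002 replicate 2. PIK3R3, a regulatory subunit, fell by 0.87 ± 0.22 in GR3 (adjusted p = 0.012), by 0.74 ± 0.22 in WZ4002-tolerant cells (adjusted p = 0.02), and by 1.05 ± 0.22 with WZ4002 and 0.89 ± 0.22 with gefitinib in parental cells (adjusted p = 0.0013 and 0.0042). Its GR3 call was lost without vehicle replicate 1 or WZ4002 replicate 2, and its WZ4002-tolerant call without the libraries of the same names. Of 15 other brakes on PI3K, AKT and mTORC1, 5 rose in GR2 and in each parental response, and 1 rose in each of GR3, gefitinib-tolerant and WZ4002-tolerant cells. In GR2 4 fell, in each parental response 3, in GR3 1 and in either tolerant population 0. Over all genes 27.4% rose and 28.3% fell in GR2, 25.1% and 22.3% with WZ4002 and 23.5% and 21.8% with gefitinib in parental cells, and 12.1% and 9.87% in GR3, so the counts of this list in GR2 and parental cells are near those shares. In gefitinib-tolerant cells 15.2% of all genes rose and 13.6% fell, and in WZ4002-tolerant cells 17% rose and 15.6% fell. The lipid phosphatase gene INPP5D rose by 3.13 ± 0.34 in GR2 (adjusted p = 1.8e-06), INPP5J by 2.74 ± 0.44 in GR2 (adjusted p = 8.3e-05) and by 2.42 ± 0.44 with WZ4002 in parental cells (adjusted p = 0.0004), and TRIB3, an AKT-binding pseudokinase, fell by 2.16 ± 0.47 in GR3 (adjusted p = 0.0044). TRIB3 also fell by 2.40 ± 0.47 with WZ4002 in parental cells (adjusted p = 0.00076). Its mean was 49.9 CPM with WZ4002 and 315 CPM with vehicle in GR2, and 72.55 CPM with gefitinib and 210 CPM with vehicle in parental cells. It was 21 CPM with gefitinib and 24.4 CPM with vehicle in gefitinib-tolerant cells, and 25.7 CPM with WZ4002 and 21.2 CPM with vehicle in WZ4002-tolerant cells. INPP5K rose by 1.06 ± 0.17 in WZ4002-tolerant cells (adjusted p = 0.00061) and by 0.83 ± 0.17 in gefitinib-tolerant cells (adjusted p = 0.0027). With libraries left out, the rises numbered 3 without GR3 vehicle replicate 2 and 0 without any other GR3 library, 0 without gefitinib-tolerant vehicle replicate 1 or gefitinib replicate 2 and 2 without the other 2 libraries, 2 without WZ4002-tolerant vehicle replicate 2, and 3 without vehicle replicate 1 or gefitinib replicate 2 for gefitinib in parental cells. The falls numbered 2 without any 1 of the GR2 libraries, and 2 in GR3 without vehicle replicate 2. For WZ4002 in parental cells they numbered 1 without vehicle replicate 1 and 5 without WZ4002 replicate 1, and for gefitinib 0 without vehicle replicate 1 and 1 without gefitinib replicate 1.

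Of 12 AKT and mTOR kinases and partners, 6 fell in GR2 and in gefitinib-tolerant cells, 5 in WZ4002-tolerant cells and in each parental response, and 0 in GR3, where the share of all genes that fell was 28.3% in GR2, 13.6% in gefitinib-tolerant cells, 15.6% in WZ4002-tolerant cells, 22.3% with WZ4002 and 21.8% with gefitinib in parental cells, and 9.87% in GR3. In each parental response 2 of the list rose, in GR3, GR2 and WZ4002-tolerant cells 1 each, and in gefitinib-tolerant cells 0. Over the 6 responses 12.1% to 27.4% of all genes rose. AKT1 fell by 1.02 ± 0.17 with WZ4002 in parental cells (adjusted p = 0.00022). SGK1, a kinase related to AKT that also phosphorylates FOXO3, went the other way, with a rise of 3.13 ± 0.24 in GR2 (adjusted p = 7.5e-08) and of 1.5 ± 0.24 with gefitinib in parental cells (adjusted p = 0.00019). The gefitinib-tolerant count was 0 or 1 with any library left out, and the WZ4002-tolerant count was 2 without vehicle replicate 1, 3 without vehicle replicate 2 or WZ4002 replicate 2 and 4 without WZ4002 replicate 1. The rise in GR3 was lost with each library left out, that in WZ4002-tolerant cells without vehicle replicate 1 or WZ4002 replicate 2, and in parental cells 1 rose without vehicle replicate 1, WZ4002 replicate 1 or either gefitinib library.

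Of 10 sestrin and GATOR genes other than SESN1, SESN2, a sestrin of the same family, fell by 2.71 ± 0.31 in GR3 (adjusted p = 3.4e-05), and fell by 3.26 ± 0.31 in GR2 (adjusted p = 5.7e-07). In parental cells it fell by 2.85 with WZ4002 and fell by 2.54 with gefitinib (adjusted p = 6.3e-06 and 1.8e-05). SESN1 rose in GR2 and in parental cells. SESN2 averaged 5.79 CPM with WZ4002 and 63.1 CPM with vehicle in GR2. In the tolerant populations it was low under either treatment. It averaged 5.5 CPM with gefitinib and 7.06 CPM with vehicle in gefitinib-tolerant cells, and 6.1 CPM with WZ4002 and 6.45 CPM with vehicle in WZ4002-tolerant cells. Parental cells with vehicle had 37 CPM. NPRL3, a GATOR1 subunit, fell in all 6 responses, by 0.47 to 0.84. In the list 4 genes fell in GR2, 2 in GR3 and 3 in each other response, while 2 rose in GR3, 1 in GR2 and in each parental response, and 0 in either tolerant population. Over all genes 28.3% fell and 27.4% rose in GR2, and 9.87% fell and 12.1% rose in GR3. In the other responses 13.6% to 22.3% of all genes fell and 15.2% to 25.1% rose. The rises of this list in GR3 numbered 0 without either vehicle library and 1 without either WZ4002 library. The rise was lost in GR2 without WZ4002 replicate 2 or either vehicle library, with WZ4002 in parental cells without vehicle replicate 1, and with gefitinib in parental cells without either vehicle library or gefitinib replicate 2. The falls in WZ4002-tolerant cells numbered 1 without vehicle replicate 1. Of 14 p53 targets, a list that also holds SESN2, 5 rose and 6 fell in GR2, where 27.4% and 28.3% of all genes did, 2 rose and 3 fell in GR3, and 2 to 5 rose and 1 to 4 fell in the other responses. The GR2 rises are near the share over all genes. In GR3 12.1% of all genes rose and 9.87% fell, and in the other responses 15.2% to 25.1% rose and 13.6% to 22.3% fell. The p53 list's rises numbered 1 without gefitinib-tolerant gefitinib replicate 2 or either vehicle library, and 1 without WZ4002-tolerant WZ4002 replicate 2 or vehicle replicate 1. Its falls numbered 0 without gefitinib-tolerant gefitinib replicate 2 or vehicle replicate 1, 1 without WZ4002-tolerant WZ4002 replicate 1 or vehicle replicate 1, 2 with WZ4002 in parental cells without vehicle replicate 2, and 2 with gefitinib in parental cells without gefitinib replicate 1. TP53INP1 rose by 3.05 ± 0.47 in GR3 (adjusted p = 0.00036), 5.66 ± 0.47 in GR2 (adjusted p = 1.3e-07), 2.55 ± 0.47 in gefitinib-tolerant cells (adjusted p = 0.0015) and 2.40 ± 0.47 in WZ4002-tolerant cells (adjusted p = 0.0018). In parental cells it rose by 4.64 with WZ4002 and 4.90 with gefitinib (adjusted p = 3.8e-06 and 2.6e-06). Of 6 relatives and partners of CITED2, CITED4 rose by 1.45 ± 0.19 in GR2 (adjusted p = 1.4e-05) and HIF1A fell by 0.87 ± 0.28 in GR3 (adjusted p = 0.034), a call that was lost with each library left out. HIF1A also fell by 1.12 in gefitinib-tolerant cells, and by 1.23 with WZ4002 and 0.95 with gefitinib in parental cells (adjusted p = 0.0079, 0.0021 and 0.011). CITED4 also rose by 0.63 in WZ4002-tolerant cells and by 0.89 with gefitinib in parental cells (adjusted p = 0.022 and 0.0017). In this list 3 genes rose in GR2, 0 in GR3 and 2 in each other response, and 1 fell in each. Over the 6 responses 12.1% to 27.4% of all genes rose and 9.87% to 28.3% fell. The falls, and the rises in parental cells, are near those shares. The fall was lost with any GR2 library left out, and in gefitinib-tolerant cells 1 gene rose with any library left out. In WZ4002-tolerant cells 0 rose without WZ4002 replicate 2 or vehicle replicate 1, and in parental cells 1 rose without either vehicle library, WZ4002 replicate 2 or gefitinib replicate 1. The fall was also lost without gefitinib-tolerant gefitinib replicate 2 or vehicle replicate 1, either WZ4002-tolerant WZ4002 library or vehicle replicate 1, and, for gefitinib in parental cells, gefitinib replicate 1 or vehicle replicate 2.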

How the data were processed

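Polyadenylated RNA of 22 libraries in 11 groups of 2 was analysed from 1 deposited table of gene values. Libraries were made with a directional kit, per the labels. The submitters' processing notes name STAR, HTSeq and the build hg19. Versions and the strand setting of the counting are not given in the sources used here. The deposited values are CPM, rounded by the authors to 2 decimals, and 16779 of 17165 identifiers matched a symbol. All values were whole multiples of 1 step per library within 0.0051 CPM, taken as the CPM of 1 read, against 24.1 to 50.6% by chance, and this gave the depths. Values were taken as log2(CPM + 1), and genes with at least 1 CPM in at least 2 libraries were kept (15485, with 1680 left out and all 8 members kept). limma 3.58.1 (R 4.3.3) estimated 1 mean per group from all 22 libraries, on 11 residual and 4.8 prior degrees of freedom. Benjamini-Hochberg adjustment of p ran over all tested genes within each of 22 comparisons (6 drug responses, 1 between inhibitors, 5 with vehicle, 5 differences between responses, and 5 under drug that were added after the values were seen). The fit was also run on simulated data with the same noise setting for all genes and groups. The spread of the real groups was unequal, so that run does not show how the fit behaves here. Promoters came from RefSeq, and exon lengths and chromosomes from GENCODE. The members and lists were chosen with earlier results of these data known. All 8 members were named throughout, with the genes of each list that had the lowest p in a response and the genes most like a member, except that 1 list gene is not reported here. Replicates of every group differed by more than counting noise. Results were recomputed with median-of-ratios scaling, with no filter, with a pseudocount of 0.1, with a replicate block, the spread of the compared groups alone, a term for 3 runs of neighbouring columns, each library left out, and limma-voom on the recovered reads, chosen after seeing the data.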

Additional observations from a re-analysis of the deposited data

Results flagged for a closer look

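Among the 8 genes, 9 differences between drug responses passed the test of the difference itself (limma, adjusted over all tested genes). For WZ4002 in GR3 minus GR2 these were DEPP1 (-3.43), PIK3IP1 (-3.08), SESN1 (-1.83), FOXO1 (-1.41) and FOXO4 (-1.11). For WZ4002 in GR3 minus parental cells it was SESN1 (-1.39), for WZ4002 in GR2 minus parental cells DEPP1 (2.90), and for WZ4002-tolerant minus parental cells SESN1 (-1.16) and FOXO3 (-0.92). The shares of all genes in the same direction were 6.8%, 0.659%, 3.34% and 2.4% in that order of comparisons. The FOXO4 call and every call against parental cells were lost under another setting or with a single library left out. The other calls of GR3 minus GR2 were kept in every alternative run, though the GR2 vehicle and GR2 WZ4002 columns stand in separate runs of neighbouring columns. With 2 libraries per group, no group was large enough to be examined for a single outlying library.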

How the results depend on the processing

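No log2 change of a member reversed a called direction under any alternative run, and limma-voom kept 77 of 79 member calls. The number of members called changed by over 1.5 times in the following. For GR3 minus parental with vehicle, 1 became 2 with a pseudocount of 0.1, median-of-ratios scaling, a replicate block or the column-run term, 0 with the spread of the compared groups alone, and 0 to 1 with single libraries left out. For GR2 minus parental with vehicle, 3 became 5 with a pseudocount of 0.1 or median-of-ratios scaling, 6 with the compared groups alone and 1 to 2 with libraries left out. For GR3 minus GR2 with vehicle, 3 became 1 with the column-run term or the compared groups alone and 1 to 3 with libraries left out, and for gefitinib-tolerant minus parental with vehicle 2 became 1 to 2. The WZ4002 response in GR3 had 3 to 5 with libraries left out. Among differences of responses, GR3 minus parental had 0 with the compared groups alone or limma-voom and 0 to 2 with libraries left out, GR2 minus parental 0 with the column-run term, 2 with the compared groups alone and 1 to 2 with libraries left out, gefitinib-tolerant minus parental 1 with the column-run term and 0 to 1 with libraries left out, and WZ4002-tolerant minus parental 1 with no filter or limma-voom, 0 with the compared groups alone and 0 to 2 with libraries left out. Under drug, GR3 minus parental had 3 to 5, gefitinib-tolerant minus parental 2 to 6, and GR2 minus parental 0 with the compared groups alone and 0 to 1 with libraries left out. Counts over all genes moved further. With libraries left out they were 1729 to 3688 for the WZ4002 response in GR3 (3406 as reported), 6596 to 7255 in GR2 (8618), 1401 to 4184 in WZ4002-tolerant cells (5049), 976 to 4233 for gefitinib in gefitinib-tolerant cells (4446), and 4840 to 6409 with WZ4002 (7348) and 4525 to 5898 with gefitinib (7017) in parental cells. For the differences they were 1005 to 2888 for GR3 minus GR2 (2103), 46 to 1059 for GR3 minus parental (200), 328 to 1266 for GR2 minus parental (1051), 90 to 254 for gefitinib-tolerant (310) and 174 to 1076 for WZ4002-tolerant (696) minus parental. With the spread of the compared groups alone the GR3 response gave 693. The causes were not tested. Whether replicate numbers pair the libraries was not settled. Over 55 pairs of groups the correlation of same-numbered deviations ran from -0.46 to 0.63 (median 0.05), with 20 pairs over 0.1. Over all genes the replicate block gave more calls in every comparison that had any, such as 3789 against 3406 in the GR3 response. The replicate block brought 4 member results under the threshold, FOXO4 in GR3 (adjusted p = 0.048), CITED2 in GR3 minus parental with vehicle (0.027), PIK3R1 in GR2 minus parental with vehicle (0.05) and PIK3IP1 in gefitinib-tolerant minus parental with gefitinib (0.047), and ended none. A count model planned for the recovered reads was not run, and limma-voom on those reads was run in its place. Each member had at least 56 reads per library, and calls at other depths or group sizes were not tested. A library left out leaves its group with 1, which is assumed to vary like the others.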
